A study of Mus musculus with 48 samples.

Results

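The motile cilium genes are the 59 rows, of the 16510 genes in the table, whose names begin with *Dnah*, *Dnai*, *Cfap*, *Rsph*, *Spag*, *Tekt* or *Drc*, together with *Ccdc153*, *Tmem212*, *Dynlrb2*, *Rfx2*, *Rfx3* and *Mcidas*. They were chosen by name and grouped by role. The groups are 13 cilia- and flagella-associated protein (CFAP) genes, 14 dynein arm genes, 7 radial spoke genes, 6 SPAG genes mostly of the central pair, 2 genes of the nexin-dynein regulatory complex, 5 tektins, the 2 small ependymal genes *Ccdc153* and *Tmem212*, and the 3 regulators *Rfx2*, *Rfx3* and *Mcidas*. The remaining 7 members carry a CFAP or SPAG name but are known to be broadly expressed or to work outside the axoneme (*Cfap20*, *Cfap36*, *Cfap97*, *Spag4*, *Spag5*, *Spag7* and *Spag9*). Leaving out the regulators, the broad members and *Spag1* gives 48 genes, called the axonemal core below.

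Motile cilia beat because dynein arms slide the outer doublet microtubules of the axoneme past each other. Radial spokes, the central pair and the nexin-dynein regulatory complex shape that sliding into a bend, and tektins and many CFAPs lie along or inside the doublets. In the brain, ependymal cells, which line the ventricles and move cerebrospinal fluid, are multiciliated. Their program is switched on by GEMC1 and multicilin (the product of *Mcidas*), and then by the forkhead factor FOXJ1 and by RFX factors, which bind X-box motifs. Primary cilia, which most neurons and progenitors carry for signaling, lack dynein arms, radial spokes and the central pair.

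The study profiled single cells of the E18.5 mouse hypothalamus, in control embryos (Eed fl/fl) and in Eed-cKO embryos (Eed fl/fl; Sox1-Cre/+), all of a mixed B6:129S1 background. *Eed* encodes a core subunit of PRC2, the complex that places the repressive mark H3K27me3, and the Cre is driven from the *Sox1* locus, which is active in the early neural plate. Cells of other origin in the same tissue, such as endothelial and microglial cells, are therefore not expected targets of the deletion. There were 6 control and 9 Eed-cKO embryos, in 22 and 26 libraries, and sums per embryo were compared, so p-values measure the spread between embryos. The question asked of the cilium genes was whether cells with *Foxj1*, and embryos with more *Foxj1*, also carried the transcripts of a cilium.

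Of 14121 cells, 13295 were neural, 6840 from control and 6455 from Eed-cKO embryos. A control embryo held 5363119 to 7487417 unique molecular identifier (UMI) counts, with a median of 6785494. An Eed-cKO embryo held 658175 to 6299181, with a median of 4386172, so the Eed-cKO values rest on fewer molecules. The first part of a library's name was read as its litter, which gave 4 control and 6 Eed-cKO litters with none holding both genotypes, and litter and genotype cannot be told apart. *Eed* itself was at 29.9, 32.8 and 34.1 CPM (a gene's UMIs scaled to the total of the embryo; lowest, median and highest embryo) in control and at 19.5, 22.6 and 27.3 in Eed-cKO, without overlap (log2 fold change −0.45, SE 0.085, edgeR adjusted p = 0.000453). The reads lie at the 3′ end of transcripts, outside the deleted exons, so this level does not check the deletion. A control library of 1207 cells stood apart from the other libraries (163 to 465 cells), and 101 cell barcodes occurred in more than 1 library.

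A neural cell with at least 1 *Foxj1* UMI is called Foxj1-positive here, and any other Foxj1-negative. There were 318 Foxj1-positive cells in control and 634 in Eed-cKO. They made up 4.75% ± 1.17 of neural cells in control (SD, n = 6 embryos, 3.6% to 6.23%) and 9.74% ± 2.94 in Eed-cKO (n = 9, 4.81% to 13.5%), so the ranges overlapped. Summed over all neural cells, *Foxj1* was at 11.8, 23.5 and 86.3 CPM in control and at 19.9, 59.6 and 114 CPM in Eed-cKO. Control 1 had the 86.3 CPM, and the next control embryo had 28.0. The difference was 0.97 on the log2 scale (SE 0.36, edgeR adjusted p = 0.0456), and this call held in 12 of 26 alternative analyses, with log2 fold changes of 0.78 to 1.76. Such sums do not separate more expressing cells from more RNA in each of them.

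Most of the cilium genes were higher in Foxj1-positive than in Foxj1-negative cells of the same embryos, in both genotypes. In control, 46 of 58 members tested were higher and 2 lower (edgeR, adjusted p under 0.05), where 30.6% of all 15773 genes were called, 13.3% higher and 17.4% lower. In Eed-cKO, 47 were higher and 3 lower, beside 44.9% of all genes, 20.8% higher and 24.1% lower. The median log2 fold change of the members was 3.01 for control and 2.57 for Eed-cKO, while that of all genes was −0.19 and −0.10. Of the 48 core genes 47 were tested, and 39 were higher in control and 40 in Eed-cKO. The depth of the cells differed little, with a median of 5212 UMIs in Foxj1-positive and 4741 in Foxj1-negative control cells, and of 5217.5 and 4350 in Eed-cKO. Per 10000 UMIs, Foxj1-positive cells held 25.5 core UMIs in control and 22.5 in Eed-cKO, and Foxj1-negative cells 2.59 and 3.03.

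**Figure D1:**
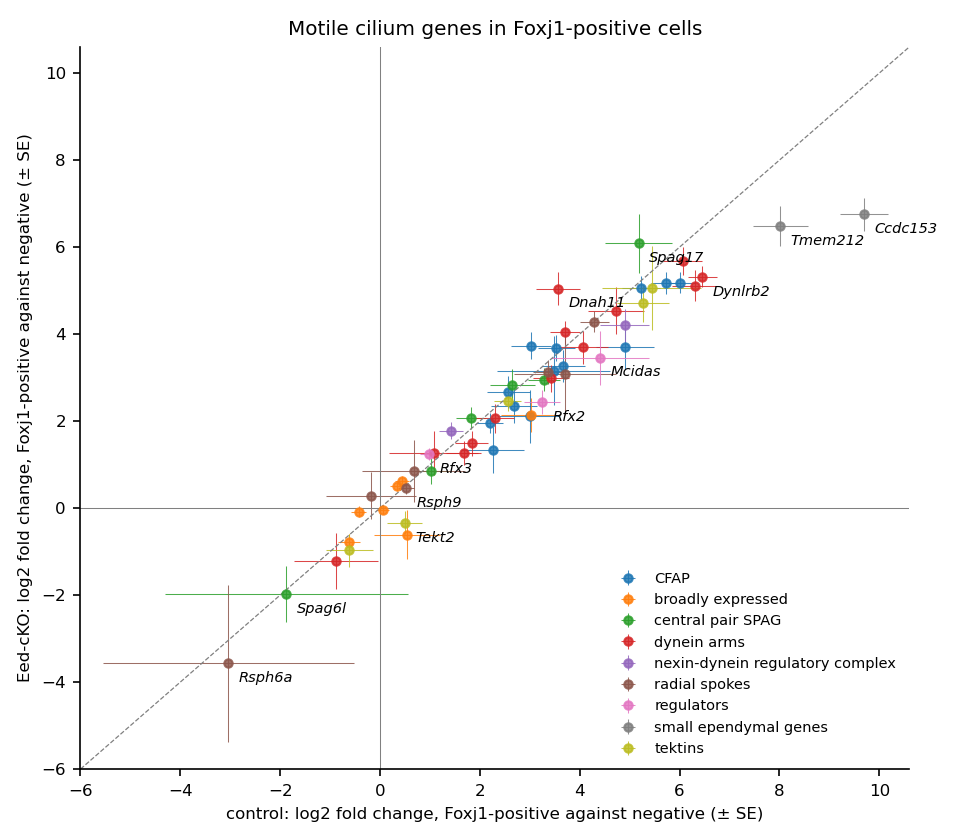
Log2 fold change of each member between Foxj1-positive and Foxj1-negative cells, in control (x axis) and in Eed-cKO (y axis), with SE bars and colors for the role groups. Most points lie far up along the diagonal, with *Ccdc153* farthest from it at 9.69 in control and 6.75 in Eed-cKO, and the broad members other than *Spag5* (3.02 and 2.14) lie between −0.78 and 0.63.

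The small ependymal genes had the largest differences. *Ccdc153*, a coiled-coil gene used as an ependymal marker, lies at chr9:44240676-44247306. In Foxj1-positive cells it was at 0, 68.3 and 446 CPM in control (lowest, median and highest embryo) and at 0, 41.7 and 228 CPM in Eed-cKO. In Foxj1-negative cells its median was 0 CPM in control and 0.36 CPM in Eed-cKO, with no embryo above 0.35 and 1.2 CPM. It was higher in the Foxj1-positive cells of 5 of 6 control and 8 of 9 Eed-cKO embryos, by 9.69 (SE 0.48) and 6.75 (SE 0.38) on the log2 scale, sizes that depend on the prior count because the Foxj1-negative cells were close to 0. *Tmem212*, a membrane protein gene also used as an ependymal marker (chr3:27866066-27896368), was higher by 8.02 and 6.49. Only 18 UMIs of *Ccdc153* and 30 of *Tmem212* lay in Foxj1-negative cells, against 573 and 541 in Foxj1-positive cells.

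Of the dynein arm genes, which encode the motors, 11 of 13 tested were higher in Foxj1-positive cells of control and 12 in Eed-cKO, with medians of 3.57 and 3.69. *Dynlrb2*, a light chain of the roadblock family (chr8:116504974-116515915), was at 93.8, 240 and 802 CPM in Foxj1-positive and at 1.54, 3.11 and 4.63 CPM in Foxj1-negative cells of control. In Eed-cKO it was at 79.5, 203 and 458 CPM against 1.68, 4.18 and 12.0 CPM. The sums did not overlap in either genotype, and the log2 fold changes were 6.46 (SE 0.29) and 5.31 (SE 0.24). The heavy chains *Dnah1* and *Dnah7b* were higher by 1.68 and 1.83 in control and by 1.27 and 1.49 in Eed-cKO. *Dnah8* was the lowest of the group, at −0.88 and −1.21, and did not pass the test in either genotype.

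All 13 CFAP genes were higher in both genotypes, with medians of 3.48 and 3.27. *Cfap126*, also known as *Flattop*, is needed for the docking and positioning of basal bodies. It was at 67.7, 117 and 552 CPM in Foxj1-positive cells of control and at 1.54, 2.56 and 3.30 CPM in Foxj1-negative cells. In Eed-cKO it was at 23.7, 151 and 514 CPM against 2.27, 4.71 and 10.8 CPM, again without overlap. The log2 fold changes of *Cfap126* were 6.01 and 5.18. *Cfap52*, a doublet inner protein, was higher by 5.73 and 5.17, *Cfap43*, which is needed for axoneme structure, by 5.22 and 5.05, and *Cfap69* by 2.20 and 1.97.

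The radial spoke genes were less uniform, with 4 of 7 higher in each genotype and medians of 0.67 and 0.86. *Rsph1* was higher by 4.29 in both genotypes and *Rsph4a*, a spoke head gene, by 3.37 and 3.12. *Rsph9*, also of the spoke head, was higher by 0.52 and 0.46, and most of its UMIs lay in Foxj1-negative cells, 5804 of 6637. *Rsph6a*, a relative of *Rsph4a* known from testis, was the lowest of the group at −3.04 and −3.56, neither called, with no UMI in Foxj1-positive cells and 32 in Foxj1-negative cells. The near-identical copies *Rsph3a* and *Rsph3b* can share reads, and neither passed the test.

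Both genes of the nexin-dynein regulatory complex were higher, *Drc1* by 1.41 in control and 1.78 in Eed-cKO and *Drc7* by 4.90 and 4.20. Of the 6 SPAG genes of the central pair group 5 were higher in each genotype. *Spag6*, a central pair gene, was higher by 1.83 and 2.07, and *Spag8* by 3.29 and 2.96. *Spag6l* was lower in Eed-cKO by 1.98 on the log2 scale (log2 fold change −1.98, SE 0.64, adjusted p = 0.0123), and its reads may be split with *Spag6*, a near-identical copy. Of the 5 tektins 3 were higher in both genotypes, among them *Tekt1* by 2.56 and 2.47 and *Tekt4* by 5.26 and 4.71. *Tekt2* was not called in either (0.49 and −0.34), and *Tekt5* was lower in Eed-cKO (−0.97, adjusted p = 0.0375).

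All 3 regulators were higher. *Rfx2*, an RFX factor known to be required for motile cilia of spermatids (chr17:56775897-56831013), was higher by 3.24 (SE 0.36) in control and 2.43 (SE 0.27) in Eed-cKO. *Rfx3*, which acts in both primary and motile ciliogenesis, was higher by 0.98 and 1.24. *Mcidas*, the multicilin gene (chr13:112993845-113000394), was higher by 4.41 and 3.46, on a total of 53 UMIs over all neural cells. The 7 broad members were mixed, with medians of 0.34 and −0.03. *Cfap20*, *Cfap36* and *Spag5*, a mitotic spindle gene, were higher in both genotypes, *Cfap97* was lower in both and *Spag7* was lower in control, while *Spag9*, a kinesin adaptor, was at 0.05 and −0.03. The calls toward lower depended on the scaling: with DESeq2 size factors or library size alone no member was lower in control and 2 were lower in Eed-cKO. Over all genes the split of calls was 2091 higher to 2739 lower in control and 3283 to 3796 in Eed-cKO with TMM, and 2605 to 1060 and 3803 to 2775 with library size alone, with the median gene moving from −0.19 to 0.01 in control.

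The promoters of 6 members, from RefSeq on GRCm38.p6, are shown because they differ in short matches to the motifs of RFX and forkhead factors. Their genes were all higher in Foxj1-positive cells. Each is the 250 bases before the transcription start, 5′ to 3′ on the strand of the gene, with the X-box core motif (GTTGCC, or GGCAAC on the other strand) or the forkhead core (GTAAACA) in capitals. *Ccdc153*, *Dynlrb2* and *Rfx2* hold an X-box part each, *Tekt1* 2, *Cfap43* a forkhead core, and *Tmem212* neither of these short matches. *Tekt1* has another RefSeq start whose window holds no match, and the start with the most matches is shown.
Ccdc153, chr9:44240427-44240676 (+ strand): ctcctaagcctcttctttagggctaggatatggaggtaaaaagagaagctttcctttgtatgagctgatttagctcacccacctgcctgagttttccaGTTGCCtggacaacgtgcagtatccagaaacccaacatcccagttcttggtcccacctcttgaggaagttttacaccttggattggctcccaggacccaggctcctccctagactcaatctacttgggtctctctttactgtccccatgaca
Dynlrb2, chr8:116504765-116505014 (+ strand): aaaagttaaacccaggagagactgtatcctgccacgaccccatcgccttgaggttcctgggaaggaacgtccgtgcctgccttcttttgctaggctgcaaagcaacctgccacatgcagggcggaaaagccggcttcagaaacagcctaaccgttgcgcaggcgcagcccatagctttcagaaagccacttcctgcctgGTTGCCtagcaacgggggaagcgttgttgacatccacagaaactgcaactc
Rfx2, chr17:56831009-56831258 (− strand): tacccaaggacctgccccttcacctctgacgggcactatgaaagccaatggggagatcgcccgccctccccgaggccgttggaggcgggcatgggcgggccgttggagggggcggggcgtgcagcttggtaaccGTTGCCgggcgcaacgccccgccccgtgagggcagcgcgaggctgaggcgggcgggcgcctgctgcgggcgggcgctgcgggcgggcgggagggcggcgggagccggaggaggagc
Tekt1, chr11:72361883-72362132 (− strand): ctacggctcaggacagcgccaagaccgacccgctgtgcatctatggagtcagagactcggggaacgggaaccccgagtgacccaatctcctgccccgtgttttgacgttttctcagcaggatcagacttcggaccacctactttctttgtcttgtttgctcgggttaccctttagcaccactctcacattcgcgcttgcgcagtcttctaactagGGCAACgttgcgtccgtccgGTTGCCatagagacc
Cfap43, chr19:47837362-47837611 (− strand): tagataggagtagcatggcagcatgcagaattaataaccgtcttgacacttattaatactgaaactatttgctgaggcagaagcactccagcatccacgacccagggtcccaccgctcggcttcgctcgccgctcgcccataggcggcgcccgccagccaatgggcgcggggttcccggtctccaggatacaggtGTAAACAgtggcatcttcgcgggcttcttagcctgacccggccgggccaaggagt
Tmem212, chr3:27896369-27896618 (− strand): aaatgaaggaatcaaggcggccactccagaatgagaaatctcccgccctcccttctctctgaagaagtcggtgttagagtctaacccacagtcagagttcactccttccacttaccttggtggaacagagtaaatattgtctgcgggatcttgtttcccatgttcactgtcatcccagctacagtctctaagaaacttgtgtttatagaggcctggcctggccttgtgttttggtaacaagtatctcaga

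The X-box part begins 152 bases before the start in *Ccdc153*, 51 in *Dynlrb2* and 116 in *Rfx2*. *Tekt1* has its matches 35 and 15 bases before the start shown. The X-box part and the forkhead core were searched on both strands in the window from 250 bases before to 50 after each start. Of the 54 members with a RefSeq promoter 42.6% held an X-box part. The share was 14.1% of 27025 genes with a promoter and 15% of those in the table. In the core the share was 42.2% of 45 genes, and in a list of 50 other motile cilium genes 56.0%. Of the members higher in Foxj1-positive cells in both genotypes 45.2% of 42 promoters held the X-box part. Of the members called higher in neither, it was found in 27.3% of 11, which count *Dnah17*, not tested for its low level. *Dnah7a* was called higher in Eed-cKO alone and is in neither group. The forkhead core was found in 7.41% of the members and in 4.05% of all genes. A match is a run of letters and no measurement of binding.

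Core genes were also counted in single cells. Foxj1-positive cells held UMIs of 6.27 different core genes on average in control and 6.38 in Eed-cKO, and Foxj1-negative cells 1.11 and 1.22. A cell with at least 5 different core genes is called a cilium-program cell here. The number of core genes increased with the *Foxj1* UMIs of the cell. In control, 1.70% of cells with no *Foxj1* UMI were program cells, 23.0% of cells with 1, 43.9% of cells with 2 to 3 and 90.4% of cells with 4 or more. In Eed-cKO the shares were 2.59%, 21.8%, 53.0% and 90.3%. The last class held 52 control and 145 Eed-cKO cells.

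**Figure D2:**
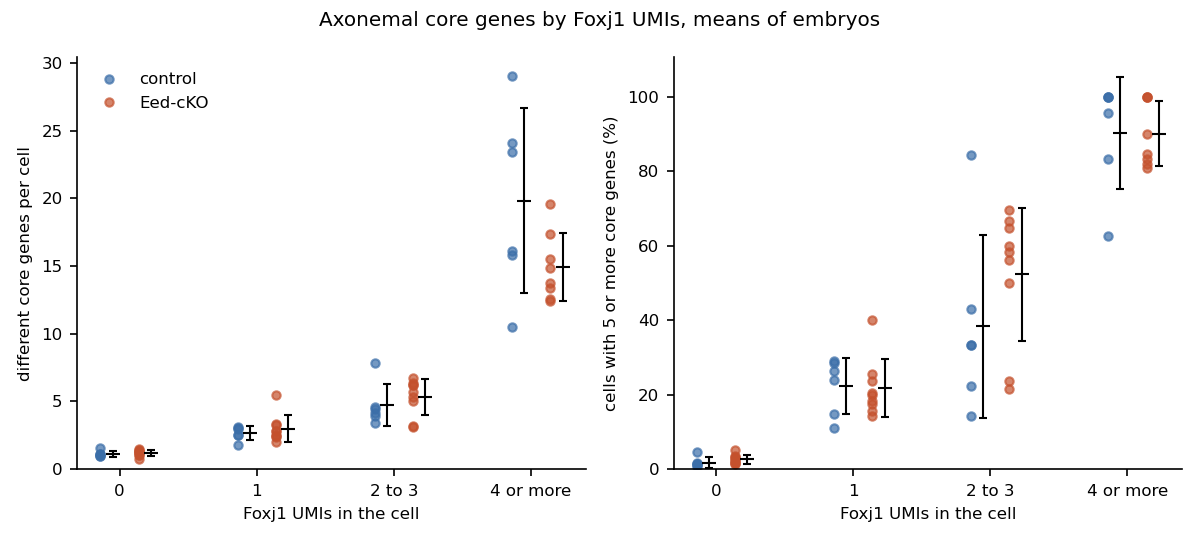
Axonemal core genes in neural cells grouped by their number of *Foxj1* UMIs, as means of each embryo (points, embryos with such cells) with the mean and SD over embryos (black marks), in control and Eed-cKO. The left panel gives the number of different core genes per cell, which reaches 19.8 ± 6.81 in control and 14.9 ± 2.49 in Eed-cKO in the class of 4 or more UMIs, and the right panel the percentage of cells with 5 or more core genes.

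In cells with 4 or more *Foxj1* UMIs, the core genes per cell averaged 21.4 in control and 15.1 in Eed-cKO, and the core UMIs per cell 74.7 and 43.1, at median depths of 5020.5 and 5451 UMIs. The means of embryos were 19.8 ± 6.81 core genes in control (SD, n = 6, 10.5 to 29.0) and 14.9 ± 2.49 in Eed-cKO (n = 8, 12.4 to 19.5). The ranges overlapped, and control had the wider spread. Each cell was also reduced at random to 2000 UMIs, and the 1231 control and 1015 Eed-cKO cells below that depth were dropped. As means of 20 such draws, 0.233%, 4.24%, 25.7% and 81.3% of the cells in the same 4 classes were program cells in control, and 0.448%, 7.41%, 15.5% and 66.2% in Eed-cKO. The classes here were those of the full *Foxj1* counts, and only the core genes were read from the 2000 UMIs. In this setting the order from no *Foxj1* to 4 or more UMIs was kept.

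Program cells made up 3.50% ± 1.96 of neural cells in control (SD, n = 6, 1.95% to 7.20%) and 6.73% ± 2.49 in Eed-cKO (n = 9, 2.88% to 9.72%), or 1.44% and 2.93% at 2000 UMIs per cell. The ranges overlapped. Among Foxj1-positive cells the share was 37.4% ± 11.8 and 43.4% ± 14.2, and 12.4% ± 4.87 and 11% ± 5.23 of these cells held no core UMI at all. Among Foxj1-negative cells it was 1.76% ± 1.47 and 2.64% ± 1.24. Both differences lie within the spread of the embryos. At 2000 UMIs per cell, with *Foxj1* read from the same 2000, the share among Foxj1-positive cells was 35.3% in control and 33.6% in Eed-cKO, so the order of the genotypes turned, and the difference ran from −7.20 to 3.79 percentage points over the draws. Of all program cells 52.4% of 233 in control and 65.8% of 441 in Eed-cKO were Foxj1-positive. In non-neural cells, which should lack the program, 0.578% of 346 control and 1.04% of 480 Eed-cKO cells passed the same cut and 0.867% and 1.67% had a *Foxj1* UMI, at median depths of 3941 and 3702.5 UMIs. The shares of neural cells were above this background.

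The cells that held the core transcripts were of several kinds. Clusters were made without the member genes and *Foxj1*, and were then named from markers. The ependymal marker list holds *Foxj1* and the members *Ccdc153*, *Tmem212*, *Dynlrb2* and *Tekt1*. The name of the ependymal-like cluster is therefore not independent of its values of these genes. The ependymal-like cluster had 42 control and 64 Eed-cKO cells, of which 42 and 59 were Foxj1-positive. It held 26.7% of the core UMIs of control and 25.9% of those of Eed-cKO, with 25.1 and 21.1 core genes per Foxj1-positive cell. Its leading core genes were *Dynlrb2* (12.8% of 8416 core UMIs), *Rsph1* (9.66%), *Cfap126* (7.72%), *Ccdc153* (6.75%) and *Tmem212* (5.85%). *Ccdc153*, *Tmem212* and *Dynlrb2* are also the members with the largest contrast over all neural cells.

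Neuron-like cells, 5225 in control and 4638 in Eed-cKO, held 58.1% and 40.1% of the core UMIs, but with 1.88 and 1.52 core genes per Foxj1-positive cell. *Rsph9* alone was 34.6% of their 15421 core UMIs, followed by *Drc1* (7.10%) and *Tekt2* (5.95%). An average neuron-like Foxj1-positive cell thus held few core genes and no full axonemal set. Astrocyte-like cells, 264 and 424, held 7.94% and 16.1% of the core UMIs, led by *Cfap126* (8.98% of 3988), *Rsph9* (8.60%) and *Dynlrb2* (6.82%). Their Foxj1-positive cells, 95 and 198, held 5.33 and 7.13 core genes each, and those of the tanycyte-like cells, 27 and 57, held 3.74 and 3.28. A cluster led by *Ttr*, *Cga* and *Tshb*, which are choroid plexus and pituitary genes, had 61 Eed-cKO cells and no control cell, and 36 of these came from Eed-cKO 7. Of the 61 cells 32 were Foxj1-positive, with 10.1 core genes each, and 30 were program cells, 6.80% of those of Eed-cKO. In Eed-cKO 7 the cluster held 36.6% of the core UMIs and 27 of the 45 program cells.

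**Figure D3:**
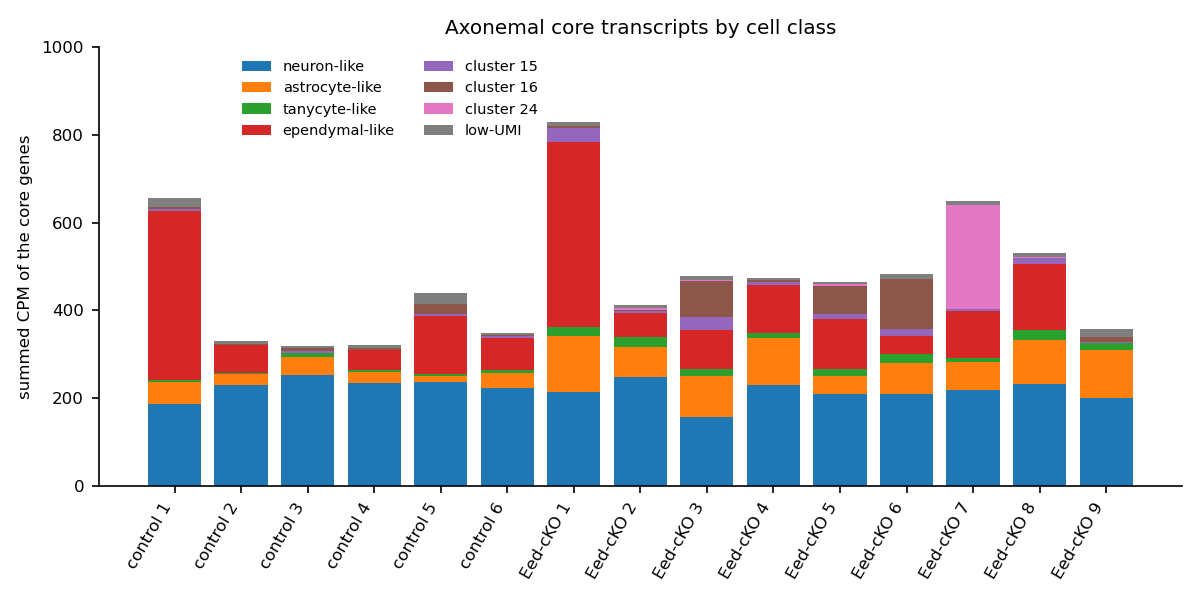
Summed CPM of the axonemal core genes over all neural cells of each embryo, stacked by cell class (colors). Control embryos range from 318 to 655 CPM and Eed-cKO embryos from 357 to 829 CPM, and the ependymal-like part is largest in control 1 and Eed-cKO 1.

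Embryos differed in the number of ependymal-like cells caught. Control 1 had 19 such cells, which held 58.7% of its core UMIs, and Eed-cKO 1 had 20, which held 51.0%, while control 3 and Eed-cKO 9 had none. Without this cluster, 25 of 57 members were still higher in Foxj1-positive cells of control (median 1.12), and 35 were higher and 2 lower in Eed-cKO (median 1.47). The share of all genes called in this setting is not set beside these counts. They therefore do not separate the members from genes in general. *Mcidas* and *Dnah1* then turned to −1.34 and −0.30 in control, neither called. The median difference of the members between Foxj1-positive and Foxj1-negative cells was smaller without the ependymal-like cluster and stayed positive. The cells left still held an unnamed cluster of 59 control and 281 Eed-cKO cells. It had raised ependymal markers (*Foxj1*, *Mia*, *Dynlrb2*, *Fam183b* and *Pifo*) beside astrocyte and tanycyte markers, but no ependymal marker among its top 10 genes. These top 10 did hold *Ccno*, a regulator of multiciliated cells. Of its cells 15 and 111 were Foxj1-positive, and 16 and 72 were program cells. Most of its Eed-cKO cells came from Eed-cKO 3 (102 cells), 5 (73) and 6 (77), with 37, 22 and 11 program cells. Control 5 gave 34 of its control cells.

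Within neuron-like cells of the 12 embryos with at least 10 Foxj1-positive cells there, 3 of 52 members were higher, where 0.587% of all genes were called, 0.153% higher and 0.434% lower: *Cfap126* by 3.03, *Dynlrb2* by 2.80 and *Rsph4a* by 1.55. limma-voom called 31 members and 3932 genes in the same comparison, against 88 genes with edgeR. Within the other neural cells of 14 embryos, 46 of 57 members were higher, beside 23.7% of all genes called, 12.5% higher and 11.2% lower, and *Dnah8* was lower, with a median of 2.73. With edgeR most of the member calls lay outside the neuron-like cells. The Foxj1-positive sums tested held 14 to 29 cells per embryo in neuron-like cells and 19 to 106 in the others. The counts of calls are therefore not compared at equal cell numbers. The other neural cells held glial, ependymal and progenitor cells, but also the *Ttr*, *Cga* and *Tshb* cluster and clusters left unnamed for their low UMIs. The low-UMI clusters had 1030 control and 558 Eed-cKO cells. Only 5 and 9 of them were Foxj1-positive, so nearly all stood on the Foxj1-negative side. Foxj1-positive cells also carried less of the neuron markers, with all 10 lower in both genotypes and a sum of 2958 to 5854 CPM against 7864 to 8906 in control. Astrocyte markers were higher in them, 7 of 10 in control and 9 in Eed-cKO (2665 to 7219 CPM against 593 to 1860 in control), as were 8 and 7 of 9 tanycyte markers and 6 and 7 of 7 markers of cycling progenitors (medians of 193 against 32.3 CPM in control). Of 8 leptomeningeal markers 4 and 6 were higher (medians of 151 against 57.3 CPM in control and 954 against 205 CPM in Eed-cKO), and of 8 pericyte or smooth muscle markers 3 and 4 (28.3 against 4.25 CPM and 281 against 20.8 CPM). Of the 5 ependymal markers that are no members *Rarres2*, *Pifo*, *Mia* and *Fam183b* were higher and *Cd24a* was lower in both genotypes, and their sum had medians of 1180 against 1101 CPM in control and 1059 against 1109 CPM in Eed-cKO. The part of this mixture in the contrast over all neural cells was not tested further than by these splits.

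Between genotypes, 13 of 44 members tested were higher in Eed-cKO over all neural cells and none was lower (edgeR, adjusted p under 0.05), where 27.7% of 12558 genes were called, 15.3% higher and 12.4% lower. The median log2 fold change of the members was 0.43, against 0.01 over all genes, and 18 members had an unadjusted p under 0.05. Of the 34 core genes tested 10 were higher. *Rfx2* was at 3.47, 4.42 and 5.29 CPM in control and at 6.13, 10.8 and 15.1 CPM in Eed-cKO. *Tekt2* (chr4:126322121-126325688) was at 8.44, 11.4 and 13.5 CPM against 13.8, 19.7 and 32.2 CPM. In these 2 of the 44 members tested the embryos of the genotypes did not overlap, a share below the 6.98% of all genes tested. The log2 fold changes were 1.29 for *Rfx2* (SE 0.18, adjusted p = 2e-05) and 0.92 for *Tekt2* (SE 0.16, adjusted p = 0.000289).

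**Figure D4:**
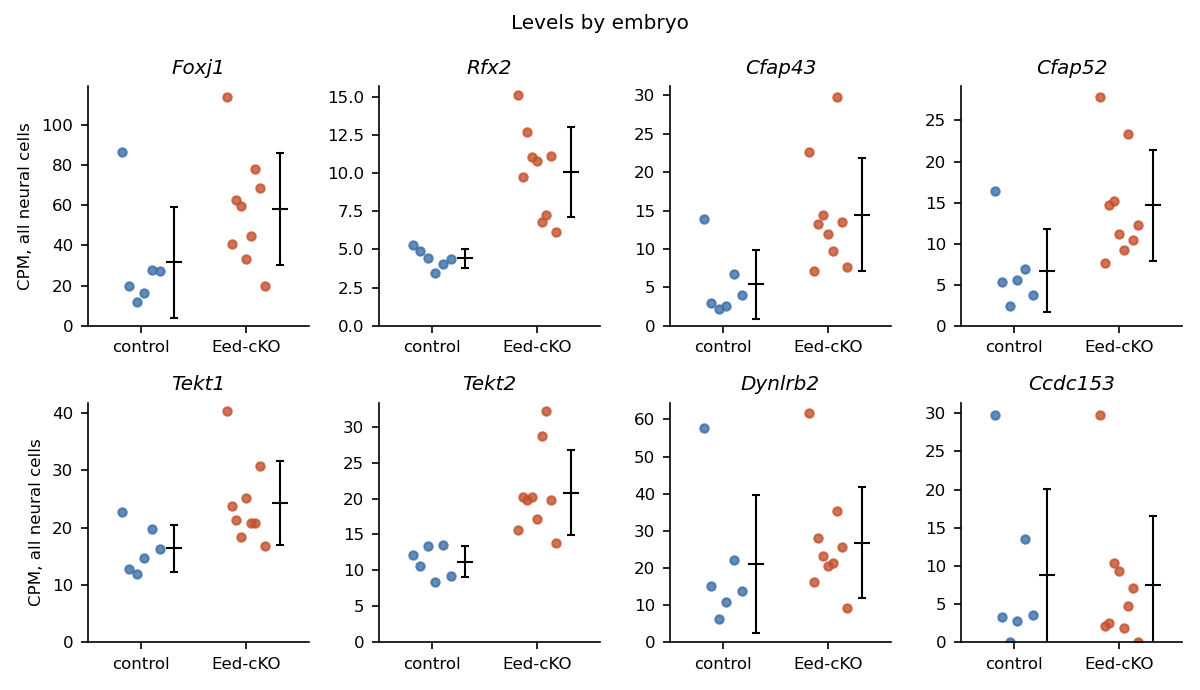
CPM over all neural cells in each embryo (points) with group mean and SD, for *Foxj1*, *Rfx2*, *Cfap43*, *Cfap52*, *Tekt1*, *Tekt2*, *Dynlrb2* and *Ccdc153*, in control and Eed-cKO. The embryos of the genotypes do not overlap in *Rfx2* and *Tekt2*, 2 of 44 members tested, beside 6.98% of all genes. *Dynlrb2* shows control 1 at 57.6 CPM and Eed-cKO 1 at 61.6 CPM far above the other embryos.

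Among the CFAP genes 5 of 9 tested were higher. *Cfap43* was at 2.23, 3.49 and 13.9 CPM in control and 7.13, 13.2 and 29.7 CPM in Eed-cKO (log2 fold change 1.5, SE 0.37, adjusted p = 0.00422). *Cfap52* was at 2.37, 5.43 and 16.5 CPM against 7.61, 12.3 and 27.9 CPM (1.2, SE 0.35). The highest control embryo lay inside the Eed-cKO range in both. *Cfap44*, *Cfap45* and *Cfap69* were higher by 0.85, 0.83 and 0.40. *Cfap126* had a log2 fold change of 1.10 and missed the threshold (adjusted p = 0.0534).

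*Tekt1* and *Tekt4* were higher by 0.63 and 0.99, so that 3 of 4 tektins tested passed. Of the dynein arm genes 2 of 11 passed, *Dnah11*, a heavy chain of the outer arm, by 0.97 and *Dnaic1*, an intermediate chain, by 0.94. *Spag1*, which helps to assemble dynein arms in the cytoplasm, was higher by 0.49, and *Spag5*, the spindle gene, by 1.80 (adjusted p = 0.000885). No radial spoke gene of 3 tested, neither *Drc1* nor *Drc7*, and neither small ependymal gene passed. *Dynlrb2* was at 6.41, 14.6 and 57.6 CPM in control and 9.20, 23.3 and 61.6 CPM in Eed-cKO (0.47, adjusted p = 0.379), *Ccdc153* had a log2 fold change of 0.00 and *Tmem212* of 0.39. These 3 members had the largest contrast between Foxj1-positive and Foxj1-negative control cells and were not called between genotypes. Without the ependymal-like cluster *Dynlrb2* had a log2 fold change of 1.33 and was called (edgeR, adjusted p = 0.000181), as were *Rsph1* (0.77, adjusted p = 0.00212) and *Drc7* (1.5, adjusted p = 0.00514). Over the 26 alternatives *Dynlrb2* and *Rsph1* were called in 2 each, this one and the one without control 1, and *Drc7* in 5, among them limma-voom (1.14, adjusted p = 0.0442).

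Of the embryos left out in turn, 2 moved the number of members called most. Without control 1, which had the highest *Foxj1* and core levels of its group, 24 members passed, and without Eed-cKO 1 there were 8. There were 14 without the control library of 1207 cells, 11 without the *Ttr*, *Cga* and *Tshb* cluster and 15 of 38 without the ependymal-like cluster. *Cfap43*, *Cfap52*, *Rfx2*, *Spag5*, *Tekt1* and *Tekt2* were called in all 26 alternatives, *Spag1* in 25, *Dnah11* in 24 and *Cfap45* in 22. *Cfap44* was called in 19, *Cfap69* in 15, *Tekt4* in 21 of 25 and *Dnaic1* in 7 of 16 that tested it. With library size alone as the scaling the split over all genes moved from 1920 higher and 1556 lower to 2300 and 1094, and the 13 members stood at 13.

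Beside these differences the markers of several cell types moved as well. Over all neural cells the tanycyte markers summed to 121 to 218 CPM in control and 251 to 427 CPM in Eed-cKO, with 6 of 9 called higher, and 7 of 10 astrocyte markers and all 7 markers of cycling progenitors were higher, while 3 of 10 neuron markers were lower. Leptomeningeal markers summed to 39.0 to 133 CPM and 174 to 825 CPM, and pericyte or smooth muscle markers to 3.24 to 14.3 CPM and 30.5 to 98.5 CPM. Their part in the differences of the cilium genes was not tested.

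Within Foxj1-positive cells no member of 54 was called between genotypes with edgeR, DESeq2 or limma-voom, where edgeR called 6.67% of 13229 genes (3.98% higher and 2.69% lower), and 3 members had an unadjusted p under 0.05. The median log2 fold change was 0.01. *Dynlrb2* was at −0.57 and *Ccdc153* at −1.04, *Rfx2* at 0.46 and *Cfap43* at 0.68. Without control 1 *Cfap43* alone was called, and without control 3 *Dnah10* alone, lower. Without the ependymal-like cluster 6 of 46 members were higher in Eed-cKO: *Cfap45* by 1.96, *Cfap43* by 1.73, *Rsph1* by 1.58, *Cfap46* by 1.49, *Cfap52* by 1.27 and *Tmem212* by 2.46 (listed after their values were seen), with a median of 0.76 over the members. The 6.67% above is from the fit with that cluster, and no share of all genes is set beside these 6. The Foxj1-positive cells left held 15 control and 111 Eed-cKO cells of the unnamed cluster with raised ependymal markers. They also held 32 Eed-cKO cells and no control cell of the *Ttr*, *Cga* and *Tshb* cluster, and the part of both clusters was not tested. Foxj1-positive cells of Eed-cKO 7 held choroid plexus markers at a sum of 198640 CPM, of Eed-cKO 5 at 3797 CPM and of the other embryos at 47.5 to 279 CPM. In the same cells pericyte or smooth muscle markers summed to 6.11 to 150 CPM in control, with 3 of the 8 at 0, and to 168 to 405 CPM in Eed-cKO, without overlap. Leptomeningeal markers had medians of 151 and 954 CPM (5 of 8 called higher), tanycyte markers of 418 and 979 CPM (3 of 9) and markers of cycling progenitors of 193 and 357 CPM (5 of 7). Their part in the member values was not tested.

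**Figure D5:**
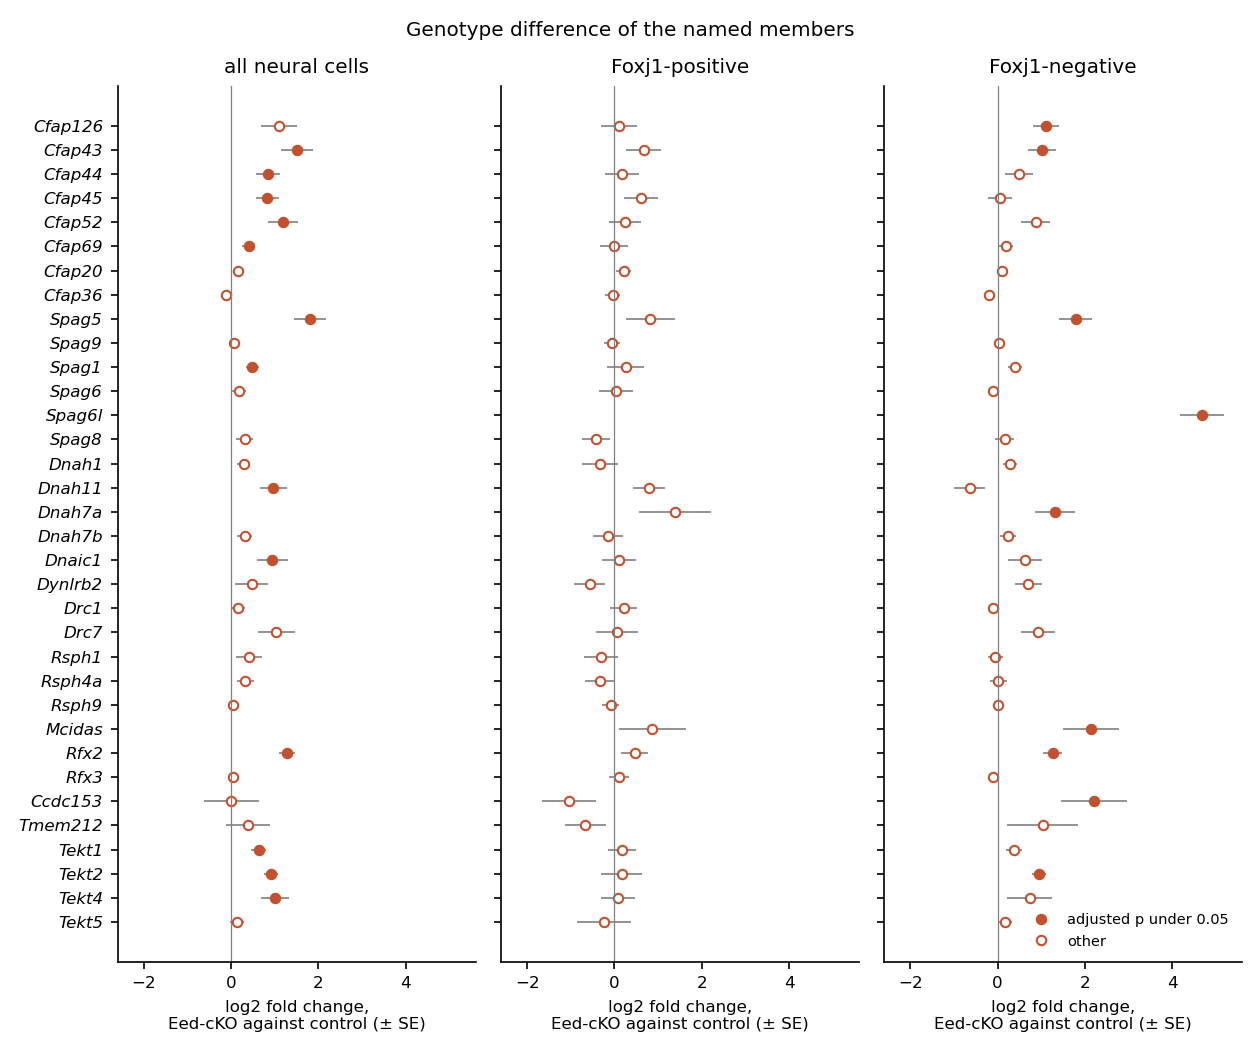
Log2 fold change between Eed-cKO and control (± SE) of the named members in all neural cells, in Foxj1-positive cells and in Foxj1-negative cells, with filled points for calls at adjusted p under 0.05. Filled points number 13 members in all neural cells, 0 in Foxj1-positive and 9 in Foxj1-negative cells, where *Spag6l* lies farthest right at 4.69.

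In Foxj1-negative cells 9 of 56 members were higher in Eed-cKO and none lower, beside 20.2% of 15500 genes called, 11% higher and 9.19% lower, with a median of 0.31. *Rfx2* was higher by 1.26, *Tekt2* by 0.95, *Cfap126* by 1.10, *Cfap43* by 1.01, *Mcidas* by 2.14 and *Spag5* by 1.79. *Ccdc153* was higher by 2.21 on a total of 18 UMIs and *Dnah7a* by 1.32, and these calls held in 13 of 25 and 11 of 26 alternatives. *Spag6l* was at 0, 0.098 and 0.482 CPM in all neural cells of control, a sum of 5 UMIs, and at 1.53, 3.78 and 8.44 CPM in those of Eed-cKO, 133 UMIs. The embryos did not overlap, and its log2 fold change of 4.69 depends on the prior count. With *Dnah7a* and *Dnah7b*, as with *Spag6l* and *Spag6*, reads of near-identical copies may be split. *Rfx2*, *Tekt2*, *Cfap126*, *Spag5* and *Spag6l* were called in all 26 alternatives. In these cells leptomeningeal markers summed to 38.6 to 85 CPM in control and 149 to 313 CPM in Eed-cKO, and tanycyte markers to 120 to 213 CPM and 222 to 310 CPM, and their part was not tested.

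The difference between Foxj1-positive and Foxj1-negative cells was then compared between the genotypes in the same fit. No member of 58 was called, beside 0.165% of all genes (0.0951% higher and 0.0697% lower), with 4 members at an unadjusted p under 0.05. DESeq2 called none and limma-voom called *Spag6l*, lower. The differences of the log2 fold changes, Eed-cKO minus control, ran from −2.94 for *Ccdc153* (adjusted p = 0.171) to 1.48 for *Dnah11* (adjusted p = 0.413), with a median of −0.33. Where Foxj1-positive meant at least 2 UMIs, *Dynlrb2* (−1.73) and *Ccdc153* (−3.59) were lower in Eed-cKO, and without the ependymal-like cluster *Rsph1* (1.68) was higher.

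Across embryos, *Foxj1* and the summed core level moved together within each genotype. The core genes summed to 318 to 655 CPM in control (median 339) and 357 to 829 CPM in Eed-cKO (median 478). Pearson's r between *Foxj1* CPM and core CPM was 0.973 in control (Spearman's rho 1.00, n = 6) and 0.943 in Eed-cKO (rho 0.933, n = 9), given here as a description since both values come from the same libraries. Without the 2 embryos farthest from the median *Foxj1* level r was 0.760 and 0.787. With the share of Foxj1-positive cells and of program cells in place of CPM it was 0.472 and 0.913. In control the relation of levels leaned on control 1.

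Other genes of the cilium were tested in the same fits. Of 60 further motile cilium genes, such as *Hydin* of the central pair and *Pifo*, 57 were higher in Foxj1-positive cells of control and 58 in Eed-cKO, none lower, with medians of 3.51 in both. Between genotypes 12 of 50 were higher over all neural cells, beside 15.3% of all genes, and none of 60 in Foxj1-positive cells (edgeR, 1 at an unadjusted p under 0.05). In Foxj1-negative cells 5 of 58 were higher, a share below the 11% of all genes. Of 15 regulators of multiciliated cells 11 and 12 were higher in Foxj1-positive cells, and 4 of 12 between genotypes: *Rfx2*, *Ccno* by 1.63, *Trp73* by 1.64 and *E2f5* by 0.34. *Ccno* acts in centriole amplification, and *Trp73* encodes a p53 relative upstream of *Foxj1*. Of 37 genes of the primary cilium and its transport 13 were higher and 2 lower in control, and 17 and 2 in Eed-cKO. Over all genes 13.3% were higher and 17.4% lower in control, and 20.8% and 24.1% in Eed-cKO. The share of higher genes in this list was thus above that of all genes in both genotypes. The medians of the list were 0.24 and 0.39, well below those of the motile cilium genes. The 2 lower genes in both were the kinesin motor subunits *Kif3a* and *Kif3b*.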

How the data were processed

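Single cells of the hypothalamus were captured in droplets (ddSEQ) and their 3′ transcript ends sequenced. The authors deposited whole-number UMI counts per gene and cell. These came from the SureCell software, in which STAR 2.5.2b was the aligner, mm10 the genome and SAMtools 1.3 handled the cell tags. The authors had removed cells with under 600 UMIs, under 300 genes or under 1.2 UMIs per expressed gene, and no such cell was left among the deposited counts. Strand use in counting is not given in the sources used here. By GENCODE vM21 positions (GRCm38), 8 members share exons with another counted gene: *Cfap43*, *Cfap45*, *Cfap97*, *Dnah8*, *Dnah11*, *Dnah17*, *Dnaic1* and *Spag17*.

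Clustering of the cells used scanpy 1.11.5 with leidenalg 0.10.2 (scaling to 10000 UMIs, 2000 variable genes without the members and listed cilium genes, clipping at 10, 30 components, 15 neighbors, resolution 1). Clusters were named from marker lists. Neural cells are those outside endothelial-like, pericyte-like, leptomeningeal-like and microglia-like clusters. UMIs were summed per embryo, over neural, Foxj1-positive or Foxj1-negative cells, and tested with edgeR 4.0.16 (quasi-likelihood, TMM, Benjamini-Hochberg over all genes, adjusted p under 0.05) in R 4.3.3. Genes under 15 UMIs in all or with no sum of 2 UMIs were left out, in all neural cells also genes with a median log2 CPM under 1.5. *Foxj1* was left out of the fits on sums split by it, and a split sum needed 10 cells. SEs are the log2 fold change over the root of F. The sums of Foxj1-positive and Foxj1-negative cells come from the same embryo, which is a block in the fit. Deviations of the 2 sums of an embryo from their group means correlated at 0.143 to 0.357 in control and 0.0827 to 0.218 in Eed-cKO over 8483 genes.

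DESeq2 1.42.0, limma-voom (limma 3.58.1), other scalings, sex as a covariate, each library as a sample, other cell filters and leaving out each embryo were alternatives, and the steps were tested on simulated data. Doublets were not removed; leaving out the 6% of cells with the highest doublet scores was an alternative. Shares and correlations over the members are given without p-values. Thinning to 2000 UMIs is the mean of 20 random draws, a number chosen after a single draw was seen to move the shares of Foxj1-positive cells.

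Named are *Foxj1*, the 6 members given by full name, the 3 members of each role with the most UMIs, every member called between genotypes or in the test of the difference, and the ends of a range; others named were chosen after their values were seen. The members and gene lists were chosen with earlier results of these data known. Promoters are RefSeq sequences matched by symbol, found for 54 of 59 members. No column of the table was left without a sample.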

Additional observations from a re-analysis of the deposited data

Results flagged for a closer look

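Control 1 lay far above the other 5 control embryos in *Foxj1* (86.3 CPM over all neural cells, next 28.0) and in 11 further values by a gap test within groups (Dixon's test). These were *Cfap126* at 39.8 CPM, *Cfap45* at 9.41, *Cfap52* at 16.5, *Drc7* at 8.63, *Dynlrb2* at 57.6, *Rsph1* at 48.2, *Rsph4a* at 17.1, *Spag6* at 27.3, *Tekt4* at 6.47, *Tmem212* at 21.2 and the summed core at 655 CPM. Of the 9 Eed-cKO embryos, Eed-cKO 1 lay above the rest in *Ccdc153* at 29.7, *Dynlrb2* at 61.6, *Rsph4a* at 25.3 and *Tmem212* at 29.5 CPM. These are the embryos with the most ependymal-like cells of their groups, 19 and 20, and the part of that number in each value was not tested.

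*Spag6l* was high in Eed-cKO 7, at 8.44 CPM. In control 3, 4.70% of Foxj1-negative cells were cilium-program cells, a share above those of the other control embryos, and this embryo had the deepest cells of its group (median 6252.5 UMIs). At 2000 UMIs per cell the share among Foxj1-negative cells was at most 0.554% in every control embryo. In all, 82 groups were tested and 18 had such a gap, 12 of them from control 1. Chance gives about 1 in 20 for independent groups. These groups share embryos and cilium genes, so their number cannot be read against that rate.

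*Odf3b*, an outer dense fiber gene that is no member, was the only gene of the 60 further motile cilium genes whose contrast between Foxj1-positive and Foxj1-negative cells differed between genotypes, by −2.69 on the log2 scale (Eed-cKO minus control, edgeR adjusted p = 0.0417). Outside the neural cells, 1.04% of 480 Eed-cKO cells passed the cut for cilium-program cells, against 0.578% of 346 control cells.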

How the results depend on the processing

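Of 2422 pairs of a named gene and an alternative, 2285 kept direction and side of the threshold, 135 lost the call and 2 changed sign, *Mcidas* (−1.34) and *Dnah1* (−0.30) in control without the ependymal-like cluster. Leaving out that cluster also moved the members called to 25 between Foxj1-positive and Foxj1-negative control cells, 6 between genotypes in Foxj1-positive cells and 1 for the difference of contrasts. With each library as a sample, 25, 2 and 17 members were called between genotypes in all, Foxj1-positive and Foxj1-negative neural cells, with libraries of an embryo counted as independent (5867, 2007 and 5312 genes). Leaving out 1 embryo gave 8 to 24, 0 to 1 and 6 to 11 members, 42 to 48 for the control contrast and 47 to 50 for Eed-cKO. limma-voom called 1 member for the difference of contrasts and 31 within neuron-like cells, and a cut of 2 *Foxj1* UMIs gave 2 for the difference. The correlation in control was 0.760 without the 2 extreme embryos and 0.472 from shares, and 0.787 without them in Eed-cKO.

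Without the replicate block 47 members were called in control, 49 in Eed-cKO, 0 for the difference, 2 within neuron-like and 46 within other neural cells. Over all genes, counts moved by over 1.5 times for the genotype test in Foxj1-positive cells (165 with 2 *Foxj1* UMIs, 525 without control 2, 532 without control 6), for the control contrast (3115 without the ependymal-like cluster), within other neural cells (1886 without low-UMI clusters), within neuron-like cells (43 with DESeq2 size factors, 51 with library size, 8 with DESeq2, 3932 with limma-voom, 6 without the block) and for the difference (83 with DESeq2, 108 with limma-voom, 14 without the block, 49 with 2 *Foxj1* UMIs, 15 without the large library, 13 without control 4, 17 without Eed-cKO 5). The share of program cells in Eed-cKO minus control stayed within 2.86 to 3.97 percentage points for neural cells, 2.34 to 8.61 for Foxj1-positive cells and 0.563 to 1.46 for Foxj1-negative cells when an embryo was left out, and the share of Foxj1-positive cells without core genes within −2.78 to 0.0114. The causes were not tested. Low members are limited by depth: *Mcidas*, *Dnah17* and *Tekt3* rest on 53, 10 and 29 UMIs in 13295 cells.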

Other observations

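Of the 37 genes of the primary cilium and its transport, 10 of 34 tested were higher in Eed-cKO over all neural cells, beside 15.3% of all genes, and 5 of 37 in Foxj1-negative cells, beside 11% of all genes. None of 34 was called in Foxj1-positive cells (2 at an unadjusted p under 0.05, edgeR). The 10 were *Gli2*, *Gli3*, *Smo*, *Kif7*, *Arl13b*, *Ift43*, *Tulp3*, *Ift80*, *Arl3* and *Ift27*, and *Gli2*, *Gli3*, *Smo*, *Arl13b* and *Arl3* were the 5 in Foxj1-negative cells. *Kif3b*, a subunit of the kinesin that carries intraflagellar transport, and *Bbip1*, a BBSome subunit, were lower over all neural cells, at −0.37 and −0.25. *Kif3b* was at 89.4, 101 and 121 CPM in control embryos (lowest, median and highest) and at 64.4, 77.5 and 84.4 CPM in Eed-cKO, without overlap. Markers of cycling progenitors and astrocytes moved with genotype as given above, and their part in these values was not tested.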
